A study of Mus musculus with 6 samples.

Results

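Whole brains of Top2b+/+ and top2b-/- mouse embryos were compared at E16.5, the middle of 3 embryonic ages that the study sampled, with 1 Affymetrix MG_U74Av2 array for each genotype. The 2 arrays of E16.5 were taken by their titles from the 6 arrays of the series, which also hold 1 array for each genotype at E14.5 and E18.5. The labels give 1 background for all embryos, 129SvEv with a minor share of 129SvJ. The top2b-/- embryos carry no intact copy of Top2b in any cell, and the sources used here do not say how the allele was made. Per the labels, the E16.5 top2b-/- sample was female and the other 5 were male, so genotype and sex cannot be told apart at E16.5, and genes of the X and Y chromosomes were left out. The sources used here do not say whether brains were pooled for an array. With 1 array a side there is no replicate check, so every value is a reading or a difference between 2 readings, with no error and no test.

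Topoisomerase IIβ passes one DNA double strand through a transient break in another, which relieves the twisting and tangling that arise when DNA is transcribed. Neurons that have left the cell cycle rely on it, since the sister enzyme topoisomerase IIα is made in dividing cells. Mice without it die at birth with defects of innervation, and work on neurons has linked the enzyme to the transcription of long genes.

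Of the 8251 mouse genes named on the array, 7971 were autosomal and 5515 had a mean reading at or above the noise. A gene was read from its brightest probe set, the group of short probes that reports a transcript. Each array was scaled to a common median, and a reading of under 40.7 counted as within noise, a limit taken from the negative readings of the noisiest array. A difference is the log2 of the top2b-/- reading over the Top2b+/+ reading, so that -1 is a reading 2-fold lower in the brain without the enzyme. Where 1 of the readings lay within noise, the fold is a lower bound and is given as "at least".

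At E16.5, 207 genes read at least 2-fold lower in the top2b-/- brain, 3.75% of the 5515, and 85 read at least 2-fold higher, 1.54%. Lower genes thus made up 70.9% of the genes past 2-fold. That share was 60.7% with the arrays scaled at the 75th percentile, 64.5% after quantile normalization and 72.9% after a correction that follows brightness (lowess). It was 14.1% with the intensities left as deposited (unscaled) and 27.5% with scaling to spike-in controls, since those settings moved the median of all genes from -0.07 to 0.45 and 0.28. Directions of gene groups are therefore read against the median of all genes. Counts of lower genes in a list are read beside the share over all genes. That share was 56.9% at E16.5, 40.4% at E14.5 and 47.8% at E18.5. Readings above noise on both arrays gave 146 of the lower and 52 of the higher genes.

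**Figure D1:**
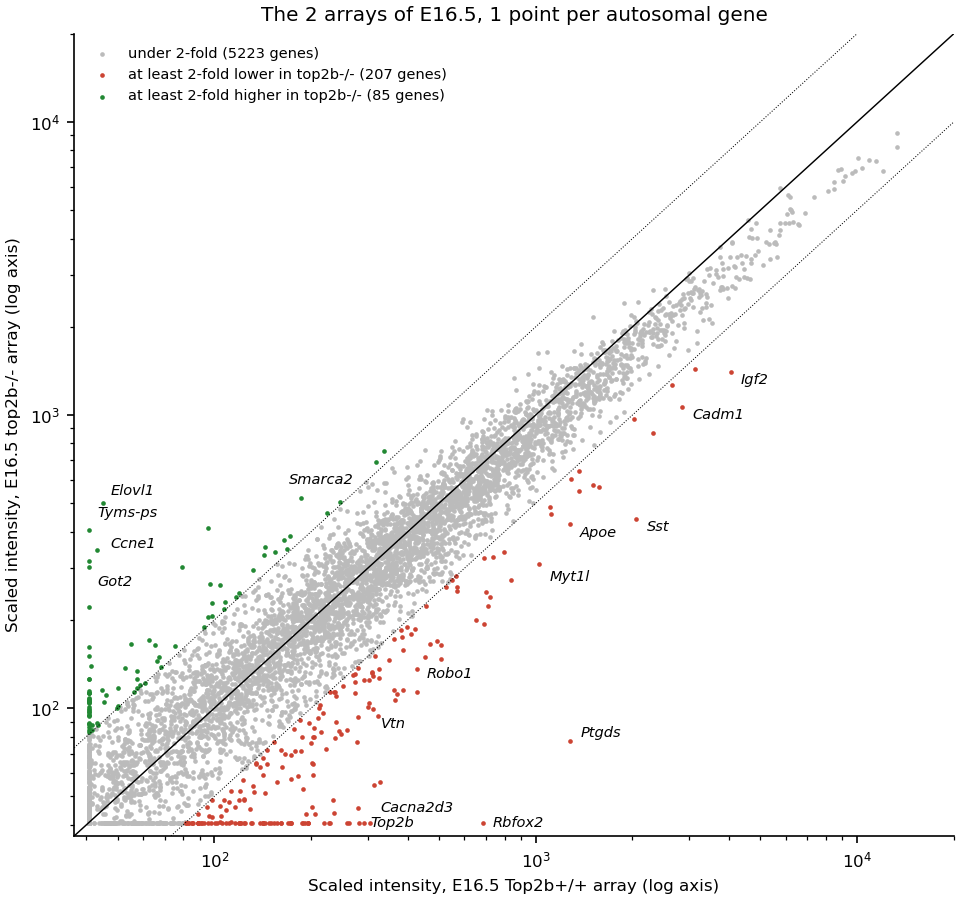
Scaled intensity of 5515 autosomal genes on the E16.5 Top2b+/+ array (horizontal, log axis) and the E16.5 top2b-/- array (vertical, log axis), with readings within noise drawn at the limit of 40.7. Red points are the 207 genes at least 2-fold lower and green points the 85 at least 2-fold higher in top2b-/-; the solid line marks equal readings and the dotted lines 2-fold.

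The deposited median of the Top2b+/+ array of E16.5 was 55.5, against 78.0 to 83.2 on the other 5, and its scale factor of 1.38 was the highest (0.919 to 0.980 elsewhere). Ratios of 3' to 5' probe sets, a measure of RNA integrity, were 1.04 for actin on the Top2b+/+ array of E16.5 and 1.19 on the top2b-/- array, and 0.953 and 0.935 for Gapdh. Across the 5515 genes the log2 readings of the 2 arrays of E16.5 correlated at 0.949. The differences at E16.5 followed brightness. In the dimmest eighth of the genes the median difference was 0.04, and in the brightest eighth it was -0.23. At E14.5 the median difference of all genes was 0.05 and at E18.5 it was 0.01, with a spread across genes (SD) of 0.40 and 0.41 against 0.51 at E16.5. The part of scaling and brightness in any single difference was not tested.

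The starts of 3 genes whose readings stood far apart at E16.5 are shown, chosen after the values were seen, because they show how unlike the promoters of such genes are: Ptgds, the prostaglandin D2 synthase of the meninges and choroid plexus, and Cacna2d3, an auxiliary subunit of calcium channels, as the genes far lower in the top2b-/- brain, and Elovl1, an elongase of very long fatty acids, as the gene far higher. Each sequence is the 250 bases before an annotated start in RefSeq on GRCm38.p6, written 5′ to 3′ along the gene, with CG dinucleotides in capitals. Ptgds starts from chr2:25469750-25469999 (minus strand), Cacna2d3 from chr14:29721865-29722114 (minus strand), and Elovl1 from chr4:118427843-118428092 and chr4:118429451-118429700 (plus strand).
Ptgds: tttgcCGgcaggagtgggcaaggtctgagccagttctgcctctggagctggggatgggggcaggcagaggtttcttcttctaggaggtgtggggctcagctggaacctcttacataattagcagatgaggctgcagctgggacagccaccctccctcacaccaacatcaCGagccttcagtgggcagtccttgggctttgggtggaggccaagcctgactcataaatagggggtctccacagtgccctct
Cacna2d3: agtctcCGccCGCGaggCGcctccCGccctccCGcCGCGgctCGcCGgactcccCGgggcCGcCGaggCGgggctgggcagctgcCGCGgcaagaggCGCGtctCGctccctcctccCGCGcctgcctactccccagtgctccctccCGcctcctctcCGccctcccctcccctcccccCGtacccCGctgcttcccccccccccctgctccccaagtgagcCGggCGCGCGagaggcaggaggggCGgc
Elovl1, upstream start: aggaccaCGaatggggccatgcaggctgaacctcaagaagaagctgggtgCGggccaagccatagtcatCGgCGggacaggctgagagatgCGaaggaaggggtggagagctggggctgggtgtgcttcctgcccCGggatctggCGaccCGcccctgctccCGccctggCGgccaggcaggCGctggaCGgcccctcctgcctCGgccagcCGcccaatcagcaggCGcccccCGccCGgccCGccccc
Elovl1, downstream start: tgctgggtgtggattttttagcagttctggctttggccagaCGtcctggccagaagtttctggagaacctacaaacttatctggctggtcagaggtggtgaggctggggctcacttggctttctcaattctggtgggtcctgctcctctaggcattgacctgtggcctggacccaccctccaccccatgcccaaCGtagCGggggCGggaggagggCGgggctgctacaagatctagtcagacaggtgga

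The Ptgds window holds 2 CG dinucleotides and is 58.4% G or C, while the Cacna2d3 window holds 30 and is 80% G or C. The Elovl1 windows hold 18 and 5, at 72% and 58% G or C. None of the 4 holds the exact letters TATAAA, the core of the TATA box, on either strand. The Ptgds window does hold CATAAATA near its end, a near match that was not counted. Over the 4445 measured genes with a RefSeq promoter, the median was 17 CG dinucleotides per 250 bases, and 6.95% held TATAAA on either strand. The 151 of the 207 lower genes with a promoter had a median of 14, and 9.93% held TATAAA. For the 69 of the 85 higher genes with a promoter the median was 18, and 7.25% held TATAAA. These matches describe letters in a window and say nothing of what acts there.

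Top2b itself read 281 in the Top2b+/+ brain and 45.6 in the top2b-/- brain at E16.5, a difference of -2.62, or 6.16-fold. At E14.5 it read 538 against 48.1, and at E18.5 it read 326 against 34.4. The top2b-/- readings lay close to or within noise at all 3 ages, and where its probes lie relative to the deletion was not analysed here. The other topoisomerases read close to level at E16.5. Top2a, the IIα enzyme of dividing cells, read 192 in Top2b+/+ and 202 in top2b-/-, Top1 read 2252 and 1914, Top3a 392 and 360, and Top3b 184 and 186.

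Ptgds had the lowest ratio among genes above noise on both arrays of E16.5, with 1277 in the Top2b+/+ brain and 77.4 in the top2b-/- brain, a difference of -4.04. Its Top2b+/+ reading was 177 at E14.5 and 1873 at E18.5, and its top2b-/- reading 95.4 and 550. The differences were -0.89 at E14.5 and -1.77 at E18.5, so the gene was lower in top2b-/- at all ages, and its knockout reading of E16.5 was the lowest of the 6 arrays. Both other Ptgds probe sets showed the same at E16.5, 895 against 49.2, and 979 against a reading within noise.

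The other genes with the largest lower readings above noise served neurons and general cell upkeep. Cplx1, complexin 1 of synaptic vesicle release, read 327 in Top2b+/+ and 55.9 in top2b-/- (5.85-fold). Sst, the peptide somatostatin of a class of interneurons, read 2056 and 443 (4.64-fold). Nefm, the medium neurofilament, read 235 and 48.5. Cdh8, a neuronal cadherin, read 202 and 46.0, and it was lower at the other ages too (124 against 50.4, and 227 against 25.7). The kinase Akt2 read 314 against 54.6, the chromatin protein Wdr5 235 against 43.7, the secreted glutathione peroxidase Gpx3 205 against 43.4, and the glycan-trimming enzyme Mogs 193 against 43.5. At E18.5 the readings of Akt2, 215 and 179, lay closer together than at E16.5.

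Among genes within noise in the top2b-/- brain, Cacna2d3 read 305 against 11.8 at E16.5, at least 7.48-fold lower, 181 against 6.34 at E14.5 and 307 against 4.89 at E18.5. It was within noise without the enzyme at every age. Rbfox2, a regulator of splicing, read 684 against 16.1, at least 16.8-fold lower, on a probe set whose readings at the other ages were 689 against 740 and 357 against 501. The other Rbfox2 probe set had a smaller difference at E16.5, 137 against 41.4 (-1.73). Hoxa5, a hindbrain and spinal cord homeobox gene, read 292 against 23.9, Fxyd7, a regulator of the sodium pump in brain, 262 against 22.9, Pld3, a lysosomal nuclease of neurons, 259 against 0.36, and Sprr2e, an epidermal envelope protein, 283 against 37.0. These were at least 7.18-fold, 6.42-fold, 6.35-fold and 6.94-fold lower.

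Elovl1 was the gene with the highest ratio in the other direction. It read 44.9 in the Top2b+/+ brain and 502 in the top2b-/- brain at E16.5, an 11.2-fold difference (3.48), with 122 against 873 at E14.5 and 70.3 against 1068 at E18.5. All 3 knockout arrays lay above all 3 wild-type arrays. Tyms-ps, a thymidylate synthase pseudogene, read 21.0 against 405 at E16.5, at least 9.96-fold higher, and was also higher at E14.5 (747) and E18.5 (139) with each Top2b+/+ reading within noise. Its other probe set lay within noise on both arrays of E16.5.

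Elovl1 and Tyms-ps were the 2 genes at least 2-fold higher at all 3 ages. For several other genes with large ratios the wild-type reading stood apart. Ccne1, cyclin E1 of the entry into DNA synthesis, read 346 in the top2b-/- brain, close to its 344 and 352 at the other ages, while the Top2b+/+ brain read 43.3 at E16.5 against 322 and 318 at the others. Got2, the mitochondrial aspartate aminotransferase, read 22.1 in Top2b+/+ and 303 in top2b-/- at E16.5 (at least 7.43-fold higher), but 397 against a reading within noise at E14.5 and 368 against 127 at E18.5. Its other probe set was within noise on both arrays of E16.5. Pcp2, a Purkinje cell protein, was within noise in Top2b+/+ at E16.5 alone, with 222 in top2b-/-, and read 303 against 188 at E14.5 and 613 against 705 at E18.5. Got2 readings lay far apart within both genotypes. For Ccne1 and Pcp2 it was the Top2b+/+ array of E16.5 that stood apart.

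Of the 85 higher genes, 55 had their lowest reading of all 6 arrays on the Top2b+/+ array of E16.5, and 46 had their highest on the top2b-/- array of that age. Of the 207 lower genes, 127 had their highest reading on the Top2b+/+ array and 80 their lowest on the top2b-/- array. Over all 5515 genes these counts were 700, 671, 1628 and 501. Choosing genes by their E16.5 difference raises all these counts, so they are a description only.

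The other higher genes named by size of difference had varied roles. The chromatin remodeller Smarca2 read 187 in Top2b+/+ and 520 in top2b-/- at E16.5, against 243 and 352 at E14.5 and 357 and 422 at E18.5. Foxj1, the transcription factor of motile cilia and ependyma, read 62.6 against 170, with 47.0 against 185 at E14.5 and 157 against 194 at E18.5. Marveld1, a membrane and microtubule protein, read 95.8 against 412, but at E18.5 it read 399 against a value below 0. The kinesin heavy chain Kif5b read 41.3 against 140, the splicing-associated factor Bclaf1 54.9 against 166, and Zfpm1, a partner of GATA factors, 52.7 against 137. Tmeff1, a membrane protein of the brain, read 79.3 against 304, and the lipid kinase Pip4k2c 97.1 against 265, although the second Pip4k2c probe set differed by -0.18. Genes within noise in Top2b+/+ included Rps13, a ribosomal protein (317 in top2b-/-), Rgs14, a regulator of G protein signalling (161), and the zinc transporter Slc30a4 (150). The Top2b+/+ readings of Rps13 were below 0 at E14.5 and E16.5 but 224 at E18.5, beside 309 and 312 in top2b-/- at E14.5 and E18.5. Slc30a4 went the other way at E14.5, with 118 against a reading within noise, and read 181 against 175 at E18.5. Rgs14 read 160 against 167 at E14.5 and 146 against 219 at E18.5.

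Of the 85 higher genes, 75 belonged to no list. Among them were Hnrnpa1, a splicing regulator, with 224 in Top2b+/+ and 462 in top2b-/- at E16.5, 244 and 372 at E14.5, and 169 and 219 at E18.5, and Hnrnpu, a nuclear matrix RNA-binding protein, with 154 and 340, after 251 and 218 and before 154 and 137. Ptn, the growth factor pleiotrophin, read 104 and 263 at E16.5, 205 and 216 at E14.5, and 237 and 277 at E18.5. For Ptn the Top2b+/+ array of E16.5 held the lowest of the 6 readings, while for Hnrnpa1 and Hnrnpu the top2b-/- array of E16.5 held the highest. These 3 genes were chosen after their values were seen.

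Most of the lower genes belonged to no list, 129 of the 207, and these made up 2.60% of the 4960 measured genes outside the lists. Several with high wild-type readings, chosen after the values were seen, were apart at E16.5 alone. Add1, adducin of the membrane skeleton, read 1359.6 in Top2b+/+ and 552 in top2b-/- at E16.5, 536 and 623 at E14.5, and 906 and 891 at E18.5. Anxa2, an annexin of vessel and connective tissue cells, read 837 and 275 at E16.5, 546 and 636 at E14.5, and 474 and 502 at E18.5. Pfn1, the actin-binding profilin, read 507 and 147, with 249 and 296 at E14.5 and 204 and 264 at E18.5. For all 3 the Top2b+/+ reading of E16.5 was the highest of the 6 arrays, and for Anxa2 and Pfn1 the top2b-/- reading was the lowest.

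Other unlisted genes were apart at E16.5 and E18.5. Fdps, which makes farnesyl diphosphate in the cholesterol pathway, read 2649.7 in Top2b+/+ and 1268 in top2b-/- at E16.5, 1496 and 1662 at E14.5, and 2254 and 1312 at E18.5. Mvd, an enzyme of the same pathway, read 274 and 123 at E16.5, 141 and 134 at E14.5, and 262 and 105 at E18.5. Ldb2, a cofactor of LIM proteins, read 798 and 340 at E16.5, 435 and 442 at E14.5, and 829 and 287 at E18.5. These 3 were close to level at E14.5. Pbx3, a homeobox factor, and Ank3, ankyrin G of the axon initial segment, were lower at all 3 ages, with 1110 and 485, and 738 and 328, at E16.5.

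Neuronal genes read lower as a group. Of 173 measured genes in the 7 neuronal lists, 138 read lower in the top2b-/- brain at E16.5, 35 of them at least 2-fold (20.2%, beside 3.75% of all genes), and 2 read at least 2-fold higher. Their median difference was -0.41, against -0.07 over all genes, with -0.17 for E14.5 and -0.28 for E18.5. The median differed with the length of the gene. The 49 neuronal genes that span over 200 kb had a median of -0.83 and 19 of them read at least 2-fold lower, while the 124 neuronal genes up to 200 kb had a median of -0.30 with 16 at least 2-fold lower. At E14.5 the shorter neuronal genes had a median of -0.10 and at E18.5 also -0.10, where all genes had 0.05 and 0.01. The differences at E16.5 followed brightness. After the correction for brightness the E16.5 median was -0.27 for the 173 neuronal genes, -0.81 for the long ones and -0.16 for the shorter ones.

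Axon guidance and adhesion genes, which steer growing axons and hold neurons together, gave 40 of 44 measured members lower at E16.5, 11 at least 2-fold and none 2-fold higher. The median was -0.43, and it was above 0 (0.12) with intensities left unscaled, where all genes had 0.45. Robo1, a receptor for Slit repellents, read 426 in Top2b+/+ and 136 in top2b-/-, with 587 against 102 at E14.5 and 389 against 90.9 at E18.5. Ctnna2, the neuronal α-catenin that ties cadherins to actin, read 1574 against 570, and its 2 other probe sets differed by -2.30 and -1.29. Cdh13, a cadherin anchored to the membrane by lipid, read 187 against a reading within noise. Of the brightest members, Ncam1, the neural cell adhesion molecule, read 3178 against 1765, Nrp1, a semaphorin coreceptor, 1270 against 1007 (its other probe set 203 against 259), and Efnb3, an ephrin, 1142 against 983.

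Synaptic vesicle genes gave 17 of 21 lower, 6 at least 2-fold, with a median of -0.42 (0.13 unscaled). Among them were Stx1a, syntaxin 1A of the fusion machinery, with 385 in Top2b+/+ and 175 in top2b-/-, Syt1, the calcium sensor of release, with 413 and 207, and Syt2, a related sensor, with 124 and a reading within noise. Dnm1, dynamin 1 of vesicle retrieval, read 1881 and 1021, Vamp2, the vesicle SNARE, 1590 and 1383, and Syt11, a synaptotagmin, 672 and 392. Cplx2, the complexin next to Cplx1, read 220 and 324 and Snap91, a clathrin assembly protein, 374 and 529, so members pointed both ways.

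Genes of the neuronal cytoskeleton and of axon growth gave 37 of 39 lower with a median of -0.44, but only 5 at least 2-fold. The group is bright, and after the correction for brightness its median was -0.13, with 0.11 unscaled. Basp1, a growth cone protein, read 8097 in Top2b+/+ and 5797 in top2b-/-, Tubb3, the neuronal β-tubulin, 6864 and 4882, Uchl1, a neuronal deubiquitinase, 5317 and 3831, and Rtn1, a reticulon, 4597 and 4058. Thy1, a surface protein of maturing neurons, read 196 and 39.7 at E16.5, was within noise in both genotypes at E14.5 and read 368 and 128 at E18.5. Myt1l, a zinc finger factor that keeps neuronal identity, read 1025 against 311, with 502 against 215 at E14.5 and 796 against 224 at E18.5.

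Receptors, transporters and enzymes of glutamate and GABA gave 11 of 17 lower with a median of -0.48, which was 0.25 unscaled and 0.07 with spike-in scaling. Gabbr1, a GABA-B receptor subunit, read 1690 in Top2b+/+ and 1142 in top2b-/-, Slc32a1, the vesicular GABA transporter, 1358 and 974, and Gabrb1, a GABA-A receptor subunit, 363 and 172. Gria2, the AMPA receptor subunit that blocks calcium entry, read 1324 and 1275, and Gad1, which makes GABA, read 1060 and 1260. Grik2, a kainate receptor subunit, read 88.7 and within noise. Of 15 voltage-gated channel genes, 9 were lower, a share near the 56.9% of all genes. Among the 15, Cacna2d1, a paralogue of Cacna2d3, read 172 and 36.2. Kcnma1, a calcium-gated potassium channel, read 274 and 113, and Kcnj6, an inward rectifier, 150 and 271. Hcn2 and Hcn3 of the hyperpolarization-activated current read 457 and 341, and 502 and 455, and Cacna1c, a pore subunit of L-type calcium channels, 271 and 195.

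Neuropeptide genes stood lower at E16.5 than at either other age. Of 11 measured, 8 were lower and 4 at least 2-fold, with a median of -0.65 (-0.10 unscaled). It was 0.04 at E14.5, and 0.02 at E18.5. Npy, neuropeptide Y of interneurons, read 711 in Top2b+/+ and 222 in top2b-/- at E16.5, 295 and 244 at E14.5, and 903 and 381 at E18.5. Penk, which encodes enkephalins, read 719 and 240 at E16.5 against 300 and 309 at E14.5 and 748 and 684 at E18.5. In both, the top2b-/- reading of E16.5 lay below that of E14.5 while the wild-type reading had passed 2 times its E14.5 value. Trh, thyrotropin-releasing hormone, read 204 and 301. The summed reading of the 11 genes at E16.5 was 4734 in Top2b+/+ and 1994 in top2b-/-.

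Genes of cortical layers and migration were mixed, with 17 of 27 lower, where 56.9% of all genes were. Of the 27, 4 were at least 2-fold lower and 2 at least 2-fold higher, with a median of -0.25 (0.28 unscaled). Reln, the signal for migrating neurons from the brain surface, read 1367 in Top2b+/+ and 642 in top2b-/-, and it was lower at E14.5 (970 and 584) and E18.5 (1217 and 561) too. Tbr1, of deep-layer neurons, read 1222 and 1308, Dlx1, of interneuron precursors, 1110 and 1016, and Pafah1b1, a dynein regulator known from lissencephaly, 1650 and 1229. Neurod1, of young neurons, read 246 and 504, and Calb1, a calcium-binding protein, 132 and 296. Pou3f2, a factor of upper-layer neurons, read 100.2 and within noise.

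**Figure D2:**
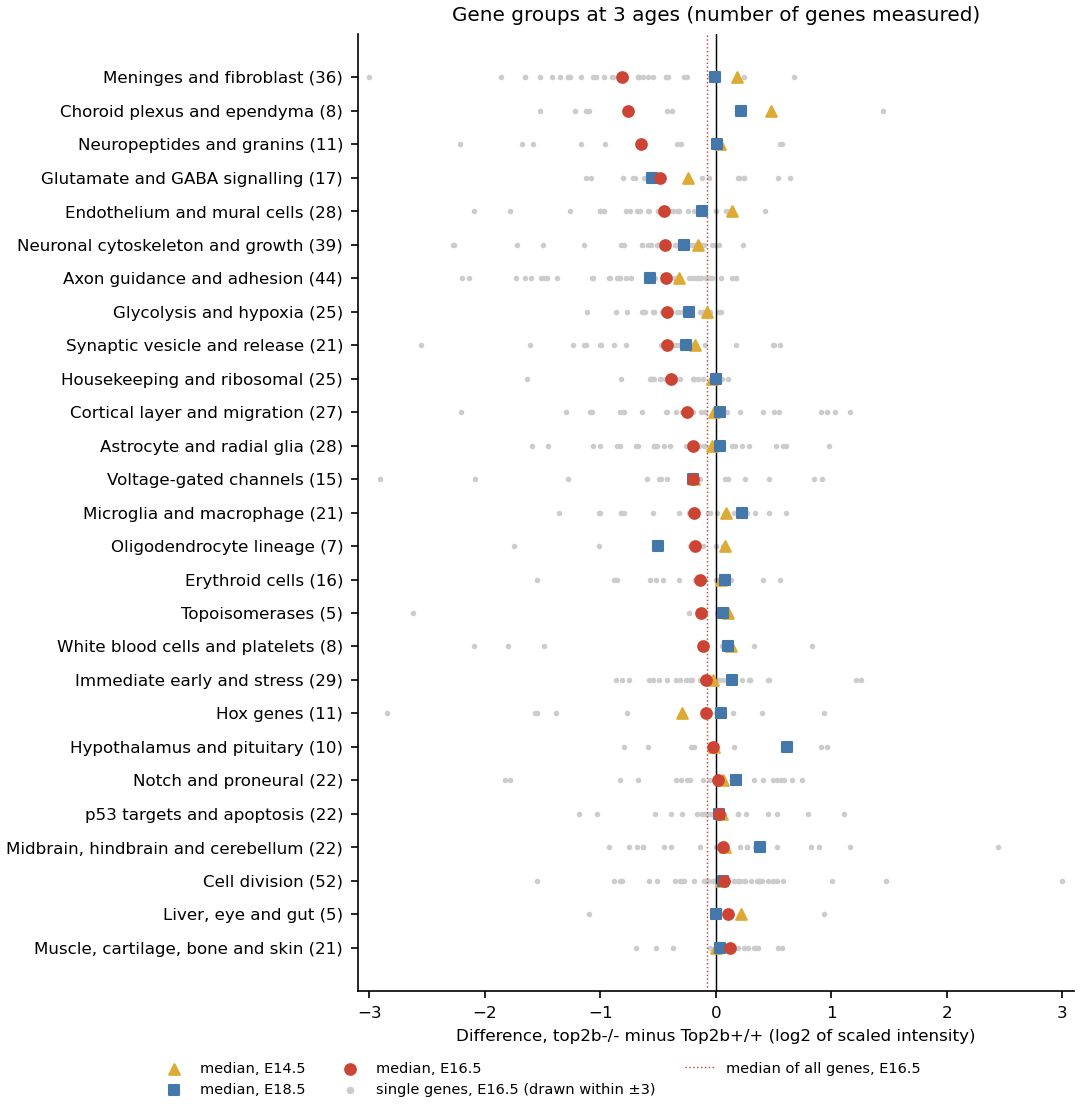
Differences between top2b-/- and Top2b+/+ (log2 of scaled intensity, horizontal) for 27 gene lists, with the number of genes measured in brackets. Large symbols are list medians at the 3 ages, grey points are single genes at E16.5, and the dotted line is the median of all genes at E16.5 (-0.07). The lists of meninges, choroid plexus and neuropeptides lie lowest at E16.5, at -0.81, -0.76 and -0.65, and near or above 0 at the other ages.

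Long genes were lower at every age. Of 208 measured genes that span over 200 kb, 35 read at least 2-fold lower at E16.5 (16.8%) and 2 at least 2-fold higher, Pde4b and Tbc1d22a. The shares at least 2-fold lower were 8.17% at E14.5, beside 1.6% of all genes, and 23.1% at E18.5, beside 2.12% of all genes. The median difference of the 208 was -0.34 at E16.5, -0.28 after correction for brightness, and 0.19 unscaled and 0.01 with spike-in scaling, which is -0.27 and -0.26 against the median of all genes in those settings. Genes of 10 kb or less had a median of -0.14 and 4.63% at least 2-fold lower, and genes of 50 to 100 kb had -0.01 and 1.68%. Among long genes in no neuronal list, 16 of 159 were at least 2-fold lower (10.1%).

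**Figure D3:**
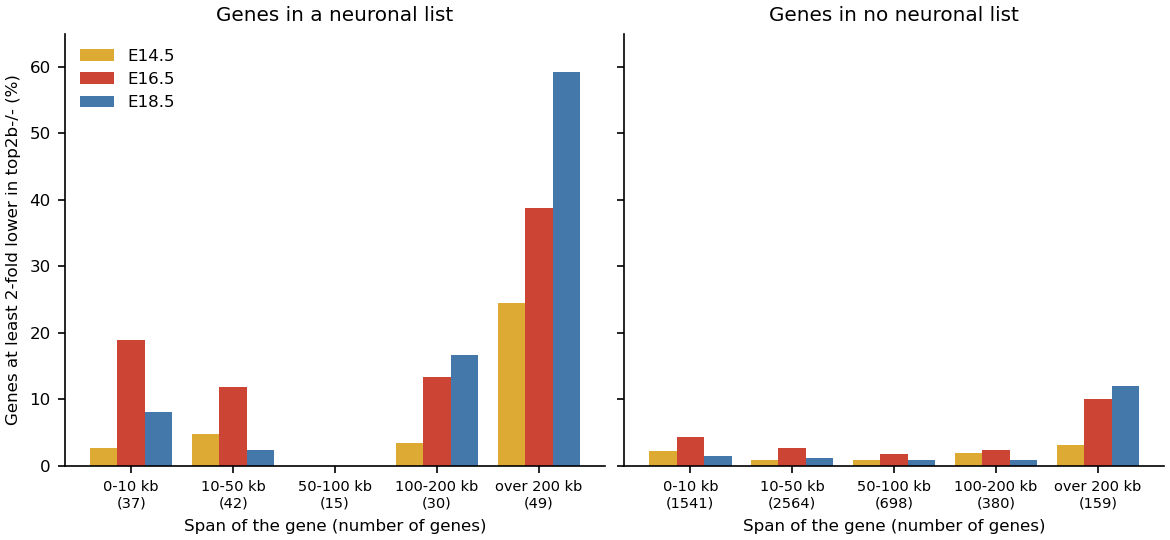
Percent of genes at least 2-fold lower in top2b-/- (vertical axis from 0) by the genomic span of the gene, for genes in a neuronal list (left) and in none (right), with a bar for each age and the number of genes in brackets. In neuronal lists the bar over 200 kb is the tallest at each age, and at E16.5 the bars of genes up to 50 kb are also above those of the other ages.

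The long genes with large differences included ligands, receptors and adhesion molecules of neurons. Nxph1, a secreted ligand of neurexins, and Zfhx3, a homeobox factor, each read 196 in Top2b+/+ and within noise in top2b-/-, and Ebf1, a factor of striatal neurons, read 188 and 20.0. Tenm2, a teneurin, read 371 against 112, with 201 against 81.2 at E14.5 and 374 against 86.9 at E18.5. Cadm1, a synaptic adhesion molecule, read 2847 against 1066, and Ctnnd2, δ-catenin, 1503 against 578. Nell2, a secreted ligand of Robo3, read 323 against 94.0, and Unc5c, a netrin receptor, 236 against 113. Exoc4, an exocyst subunit that every cell uses, read 426 against 114. Cadm1 and Ctnnd2 were further apart at E18.5 (2216 against 589, and 1421 against 423).

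The 207 lower genes separated by what they did at the other ages. Of them, 15 were at least 2-fold lower at all 3 ages, 22 at E14.5 and E16.5 alone, 27 at E16.5 and E18.5 alone, and 143 at E16.5 alone, of which 67 differed by less than 1.5-fold at both other ages. The genes shared with E14.5 were 17.9% of the 207 and 42.0% of the 88 at least 2-fold lower at E14.5. Those shared with E18.5 were 20.3% of the 207 and 35.9% of the 117 at E18.5. Over all genes, 1.6% were at least 2-fold lower at E14.5, 3.75% at E16.5 and 2.12% at E18.5, so the shared parts were above these shares. Of the 85 higher genes, 11.8% were also 2-fold higher at E14.5, where 1.4% of all genes were, and 3.53% at E18.5, where 1.2% were.

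The 15 genes lower at all ages were Top2b, Cacna2d3, Cacna2d1, Cplx1, Nxph1, Zfhx3, Ebf1, Cdh13, Cdh8, Nell2, Tenm2, Myt1l, Robo1, Alcam and Ctnna2. Of these, 13 span over 200 kb (86.7%), the median span was 396 kb, and 11 belong to a neuronal list. The 67 genes lower at E16.5 with less than 1.5-fold at the other ages did not share the long spans of these 15. Their median span was 15.7 kb, and 2 of them span over 200 kb (2.99%). Among the 67, 2 belong to a neuronal list, 7 to the meninges list, 4 to the blood and immune lists and 5 to the glial lists. Over all 5515 genes the median span was 21.0 kb, 208 span over 200 kb and 173 belong to a neuronal list. The other lists hold 36 meningeal, 45 blood and immune and 35 glial genes. In span and in neuronal genes the 67 were thus near all genes. The lists were chosen with earlier results known, and the 2 sets of genes were formed from these readings, so the contrast is a description.

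Genes of the meninges, the connective tissue sheath of the brain, had the lowest median of all lists. Of 60 listed genes, 36 were measured, and 34 of these read lower in the top2b-/- brain at E16.5, 14 of them at least 2-fold. At E14.5, 9 of the 36 were lower and at E18.5, 18. The median was -0.81 at E16.5, 0.18 at E14.5 and -0.01 at E18.5, and at E16.5 it stayed below 0 under every scaling run, from -0.23 unscaled to -0.85 after correction for brightness. Fewer cells of a type and less RNA per cell cannot be told apart in RNA of whole brains.

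Igf2, the growth factor that meninges and choroid plexus secrete, read 4043 in Top2b+/+ and 1408 in top2b-/- at E16.5, against 2123 and 2395 at E14.5 and 2815 and 2489 at E18.5. The top2b-/- reading of E16.5 was the lowest of the 6 arrays and the Top2b+/+ reading the highest. Vtn, vitronectin, showed the same order, with 311 and 99.3 at E16.5, 160 and 244 at E14.5, and 217 and 227 at E18.5. Col1a1, the first chain of collagen I, read 456 and 223 at E16.5, 329 and 360 at E14.5, and 466 and 649 at E18.5.

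The same direction held for Dcn, the matrix proteoglycan decorin (820 in Top2b+/+ and 478 in top2b-/-), Fn1, fibronectin (851 and 434), Zic1, a factor of meninges and dorsal brain (1850 and 1192), and Igfbp2, an insulin-like growth factor binding protein (1940 and 1226). Gjb2, a gap junction protein of meningeal cells, read 203 and 64.4, and Igfbp3 read 147 and within noise. Col5a1, a chain of collagen V, read 259 and 308. Col1a2, the second chain of collagen I, was ambiguous, since its brighter probe set read 291 and 467 and its other one 548 and 95.0.

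Summed over the 36 genes, the meningeal reading at E16.5 was 18062 in Top2b+/+ and 9684 in top2b-/-. The sums were 12444 and 13786 at E14.5 and 15186 and 14410 at E18.5, so the Top2b+/+ array of E16.5 was the highest of the 6 and the top2b-/- array the lowest. The summed housekeeping reading had the same order. Against the midpoint of the 2 other ages of the same genotype, the median meningeal gene stood at 0.41 on the Top2b+/+ array and at -0.45 on the top2b-/- array, where all genes had 0.13 and 0.02. None of the 36 was within noise on the Top2b+/+ array and 4 were on the top2b-/- array. The sources used here do not say how much of the brain's covering each dissection kept, and the part of dissection in the result was not tested.

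Choroid plexus genes, of the epithelium that makes cerebrospinal fluid, gave 6 of 8 lower and 4 at least 2-fold, with a median of -0.76 (-0.21 unscaled). It was 0.47 at E14.5, then 0.22 at E18.5. Ttr, transthyretin, the main secreted protein of that epithelium, read 1288 in Top2b+/+ and 603 in top2b-/- at E16.5, 548 and 938 at E14.5, and 859 and 731 at E18.5. Folr1, a folate receptor, read 111 and 47.8. Foxj1, given above, was the 1 member at least 2-fold higher. Igf2 belongs to this list as well.

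Vessel genes gave 22 of 28 lower with 3 at least 2-fold, a median of -0.44 (0.00 unscaled, where all genes had 0.45). The E14.5 median was 0.14 and that of E18.5 was -0.12. Cldn5, the tight junction protein of brain vessels, read 693 in Top2b+/+ and 462 in top2b-/- at E16.5, 335 and 457 at E14.5, and 536 and 540 at E18.5. Vwf, von Willebrand factor, read 174 and 40.6, and Notch3, a receptor of mural cells, 202 and 58.9. Col4a1 and Col4a2, chains of basement membrane collagen, read 966 and 614, and 949 and 590. Ly6e, a surface protein, read 1100.5 and 739. The summed reading was 7569 in Top2b+/+ and 4911 in top2b-/-.

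Genes of microglia and blood cells had medians nearer to that of all genes, and shares of lower members near the 56.9% of all genes. Of the 45 measured genes in these lists, however, 7 were at least 2-fold lower (15.6%, beside 3.75% of all genes). Of 21 microglial and macrophage genes, 13 were lower, 3 at least 2-fold, with a median of -0.19 (0.36 unscaled). C1qc, a complement chain of microglia, read 325 in Top2b+/+ and 127 in top2b-/-, while Csf1r, the receptor that microglia depend on, read 122 and 154 and Cx3cr1, the fractalkine receptor, 150 and 207. Coro1a, a coronin of blood cells, read 193 and 183, Fcgr1, an antibody receptor, 162 and 192, Cd14, a receptor for lipopolysaccharide, 148 and 148, and Tyrobp, a signalling adaptor, 81.9 and within noise. Of 16 erythroid genes, 9 were lower, 1 of them at least 2-fold, with a median of -0.14 (0.16 unscaled). Hba-a1, adult α-globin, read 10339 and 6981, Hbb-b2, adult β-globin, 6041 and 4846, and Mgst3, a glutathione transferase, 1779 and 982. Of 8 genes of white blood cells and platelets, 5 were lower, 3 of them at least 2-fold, with a median of -0.11. Vpreb1 of B cell precursors read 141 and within noise. Camp, an antimicrobial peptide, read 217 and 225, and Igll1, which pairs with Vpreb1, 104 and 96.2.

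Hbb-y, the embryonic β-like globin that is silenced as blood formation moves to the liver, read 493 in Top2b+/+ and 169 in top2b-/- at E16.5. It read 6281 and 5584 at E14.5 and 35.0 and 62.5 at E18.5. The top2b-/- reading of E16.5 was thus the nearer one to the level of E18.5. The embryonic α-like globin Hba-x read 252 and 137.

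Astrocyte and radial glia genes pointed both ways, with 17 of 28 lower, near the 56.9% of all genes, and 4 at least 2-fold. The median was -0.20 (0.35 unscaled and 0.16 with spike-in scaling). Apoe, the lipid carrier, read 1276 in Top2b+/+ and 423 in top2b-/- at E16.5, 249 and 261 at E14.5, and 2113 and 1687 at E18.5. Aqp4, a water channel of astrocyte endfeet, read 111 and 30.4, with its other probe set within noise on both arrays. Gja1, connexin 43, read 2017 and 967, and Ndrg2, an astrocyte protein, 565 and 283, where the second Ndrg2 probe set read 227 and 230.1. Cst3, cystatin C, read 2113 and 1908 (its other probe set 1273 and 828) and Tnc, the matrix protein tenascin C, 721 and 496. Some members were level or higher, among them Fabp7, a fatty acid binding protein, at 4859 and 4519, Id4, an inhibitor of differentiation, at 1509 and 2161, and Sox2, the stem cell factor, at 1082 and 1648.

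Of 7 oligodendrocyte lineage genes, 5 were lower. Pdgfra, the growth factor receptor of their precursors, read 388 in Top2b+/+ and 115 in top2b-/- at E16.5, 155 and 134 at E14.5, and 433 and 306 at E18.5. Its other probe set did not share this difference, with 53.9 and 60.4 at E16.5. Qk, an RNA-binding protein, read 756 and 788, and Cldn11, a tight junction protein of myelin, 81.9 and within noise. Sox10, a factor of the lineage, read 137 and 117, and the myelin gene Mbp 161 and 161. Gfap lay within noise on all 6 arrays.

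**Figure D4:**
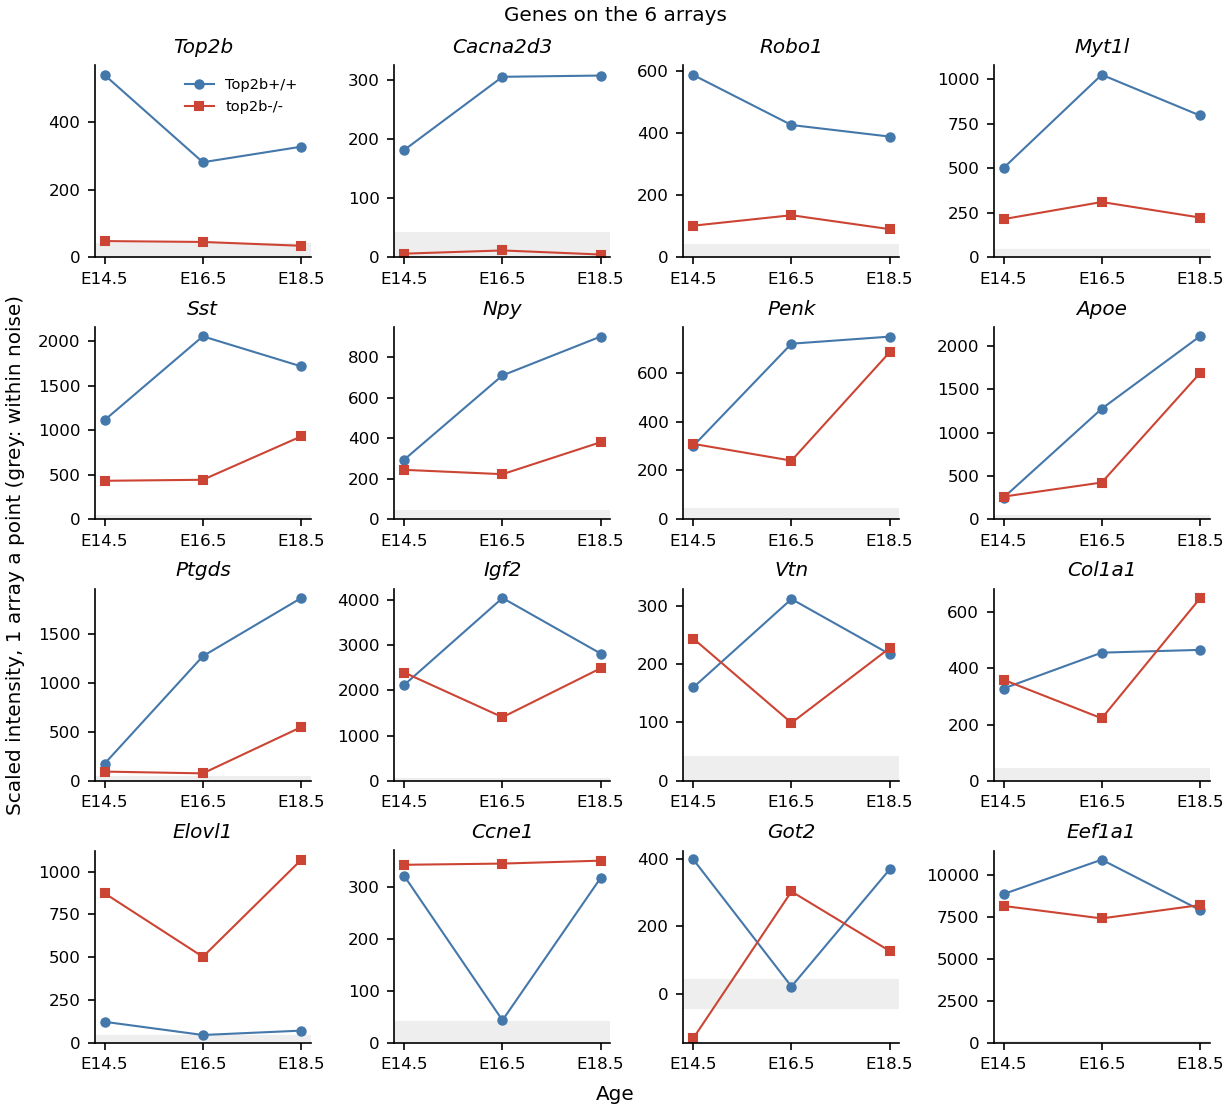
Scaled intensity (vertical, linear, each panel with its own scale) of 16 genes by age (horizontal), blue circles for Top2b+/+ and red squares for top2b-/-, 1 array a point, with the band within noise in grey. Cacna2d3, Robo1 and Myt1l are apart at all 3 ages, Penk and Apoe are apart mainly at E16.5, Igf2, Vtn and Col1a1 cross, and for Ccne1 the Top2b+/+ reading of E16.5 stands alone.

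The stage of the embryos was described with genes chosen without the E16.5 arrays. At least 2-fold higher at E18.5 than at E14.5 in both genotypes were 76 genes, and at least 2-fold lower were 95. Each E16.5 reading was placed between the mean of the 2 genotypes at E14.5 (0) and at E18.5 (1). A rising gene that is lower in the knockout at every age also scores as behind. The position therefore cannot tell stage from a lasting difference between genotypes. For the 76 genes that were higher at E18.5, the median position was 0.907 in the Top2b+/+ brain and 0.432 in the top2b-/- brain, and the knockout was behind for 66 of 76. Their median difference at E16.5 was -0.64, and 26 of them read at least 2-fold lower. The 95 genes that were lower at E18.5 had positions of 0.541 and 0.471, a median difference of 0.07 and 37 of 95 with a lower reading.

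The genes behind in the knockout covered neurons and other cells. Of 13 of the 76 in a neuronal list, 12 were behind, with median positions of 1.01 and 0.504. Stx1a, given above, read 145 and 105 at E14.5 and 360 and 235 at E18.5. Sncb, β-synuclein, read 549 and 274 at E16.5, with 216 and 182 at E14.5 and 613 and 393 at E18.5. Vsnl1, a neuronal calcium sensor, read 702 and 250, with 220 and 138 before and 992 and 406 after. Cx3cl1, the neuronal fractalkine, read 350 and 146, and Chchd10, a mitochondrial protein, 653 and 199. Genes of cell division among the 95, 32 in number, gave positions of 0.505 and 0.449.

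**Figure D5:**
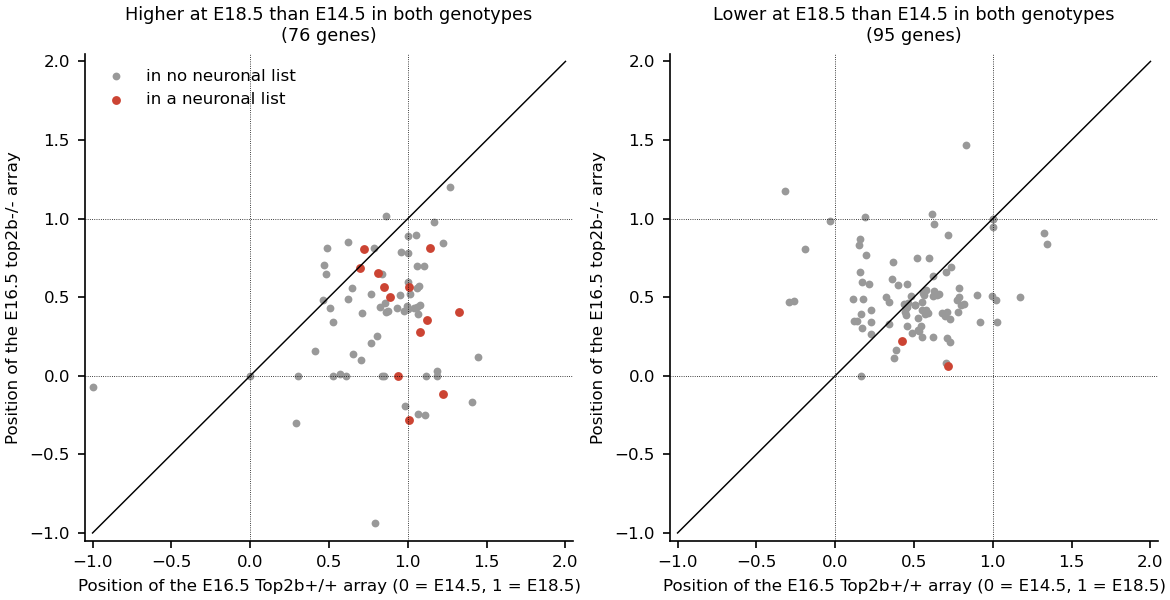
Position of the E16.5 Top2b+/+ array (horizontal) and of the E16.5 top2b-/- array (vertical) between the E14.5 mean (0) and the E18.5 mean (1), 1 point per gene and drawn within -1 and 2, for 76 genes higher at E18.5 in both genotypes (left) and 95 lower (right), with neuronal list genes in red. Of the 76 genes, 66 lie below the line of equal positions, while the 95 lie around 0.541 and 0.471.

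Of the 207 lower genes, 26 are among these 76, a larger share than the 76 of all 5515 measured genes. The 26 made up 9 of the 67 genes within 1.5-fold at the other ages, 1 of the 15 lower at all ages and 16 of the other 125. Of the 36 meningeal genes, 2 were among the 76. The 76 are a small part of all measured genes, so this count cannot show whether stage bears on the meningeal list. The part of stage in the meningeal readings was not tested.

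Cell division genes read level, with 20 of 52 lower, 1 at least 2-fold lower, 3 at least 2-fold higher and a median of 0.07 (0.61 unscaled). Stmn1, stathmin, read 8737 in Top2b+/+ and 6855 in top2b-/-, and Bub3, a spindle checkpoint protein, 1609 and 1504. Mki67, a marker of cycling cells, read 251 in Top2b+/+ and 325 in top2b-/- (its other probe set 43.9 and 117), Pcna, the DNA polymerase clamp, 1122 and 1159, and Ccnb2, a mitotic cyclin, 575 and 549. Plk1, a mitotic kinase, read 244 and 83.5, with 101 and 56.5, and 160.4 and 125, on its other probe sets, and Kif23, a kinesin of cytokinesis, within noise and 113. Genes of the p53 response and apoptosis had a median of 0.03, with 10 of 22 lower. Ccng1, a p53 target, read 75.6 and 163 and Bcl2, a survival factor, 211 and 92.9, while the second Bcl2 probe set read 146 and 136. Plk2, a polo-like kinase, read 1923 and 1334, Ei24, a p53-induced gene, 709 and 809, Btg2, an antiproliferative gene, 693 and 676, and Bcl2l1, a survival factor, 703 and 805. Notch and proneural genes had 11 of 22 lower and a median of 0.02, with Id1, a target of BMP signals, at 688 and 194 at E16.5 against 237 and 209 at E14.5 and 513 and 406 at E18.5. Id2 read 1979 and 1691, Dtx1, a Notch regulator, 822 and 669, Rfng, a fringe enzyme that modifies Notch, 813 and 639.8, and Dlk1, a Notch-related ligand, 507 and 427. Immediate early and stress genes had 17 of 29 lower, near the share of all genes, and a median of -0.08 (0.06 after correction for brightness). Hsp90aa1 and Hspa8, chaperones of the cytosol, read 4029 and 3469, and 3087 and 2939.8, Hspa5 of the endoplasmic reticulum 1403 and 1279.8, and Jund, an AP-1 factor, 3524 and 2367. Gadd45a and Zfp36, both induced by stress, were within noise in Top2b+/+ and read 97.2 and 94.5 in top2b-/-.

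Genes present in all cells also differed, which bears on the bright lists. Housekeeping and ribosomal genes had 21 of 25 lower and a median of -0.39, which was -0.07 after correction for brightness and 0.15 unscaled. Eef1a1, an elongation factor of translation, read 10889 in Top2b+/+ and 7394 in top2b-/-, Tubb5, a β-tubulin, 12021 and 6822, Tuba1a, an α-tubulin, 13296 and 9191, and Rplp0 of the ribosome 8469 and 6265. B2m, the light chain of MHC class I, read 201 and 64.8. Glycolysis and hypoxia genes had 23 of 25 lower and a median of -0.42 (-0.30 after correction for brightness, 0.13 unscaled). Ldha, lactate dehydrogenase A, read 3128 and 1442, with 2366 and 1472 at E18.5, Pkm, pyruvate kinase, 4180 and 2716, Hk1, hexokinase 1, 3393 and 2344, and Tpi1, triosephosphate isomerase, 2729.8 and 1784. Ndrg1, induced by hypoxia, read 308 and 169.5. After the same correction the medians of axon guidance, synaptic and meningeal genes were -0.38, -0.40 and -0.85.

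Markers of regions of the nervous system were read as well. Midbrain, hindbrain and cerebellar genes had 9 of 22 lower and a median of 0.07, and hypothalamic and pituitary genes 6 of 10 lower and -0.02. En2, of the midbrain-hindbrain border, read 351 and 424, Zic2, a dorsal factor, 428 and 328, Cbln1, cerebellin of granule neurons, 449.8 and 291, and Msx1, a factor of dorsal midline, 173 and 134. The hypothalamic factors Otp and Isl1 read 65.9 and 124, and 66.9 and 131, while Nr5a1 read 662 and 643, growth hormone, Gh, 333 and 292, and luteinizing hormone, Lhb, 232 and 259. Of 25 Hox genes on the array, which mark hindbrain and spinal cord, 14 lay below the filter. Of the 11 measured, 7 were lower, 4 at least 2-fold. Hoxa4 read 647 in Top2b+/+ and 380 in top2b-/- (its other probe set 57.4 and 69.3), Hoxb5 121 and within noise, Hoxb6 186 and 71.4, and Hoxb8 314 and 348. How much hindbrain or cord each sample held was not tested. Markers of tissues outside the brain, Alb and Afp of liver, Krt5 and Krt14 of skin, Col2a1 of cartilage and Cd3e of T cells, lay within noise on all 6 arrays, but other genes of such tissues read above noise. Of 21 measured muscle, cartilage, bone and skin genes 4 were lower, with a median of 0.12. Actc1 of heart muscle read 323 and 416, Tnnc2 of fast muscle 242 and 150.1, Col9a3 and Col9a1 of cartilage 204 and 257, and 62.4 and 92.7, Ibsp of bone 201 and 238, and Krt10 of skin 175 and 184. Of 5 genes of liver, eye and gut 1 was lower with a median of 0.11, and Cryab, a lens and heart chaperone, read 88.0 and 102, Crx of photoreceptors 81.3 and 87.3, and Crygd, a lens crystallin, within noise and 77.9. Neuronal Tubb3 read 4878 to 6864 on the 6 arrays.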

How the data were processed

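RNA was extracted with Trizol and RNeasy and labelled by in vitro transcription, per the labels, and the arrays were analysed in Rosetta Resolver, per the series' design text. The deposited values are linear intensities, 1 for each of 12422 probe sets that are not controls, with negative values for 16.5% to 18.7% of them. The sources used here do not say how the authors summarised the probes or whether they scaled the arrays. Each array was scaled to a common median of 76.5 (factors 0.919 to 1.38), values were raised to a noise floor of 40.7, the largest size of the 5th percentile over the arrays, and log2 differences were taken. Gene symbols came from the platform annotation, updated by Entrez ID (10817 probe sets) with the RefSeq table of GRCm38.p6, which also gave spans and chromosomes. Of the probe sets 10833 had 1 symbol, 396 several and 1193 none. A gene was its brightest probe set over 6 arrays, and genes with a mean under the floor were left out. A gene within noise on both arrays counted as 0.

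No test was run, since each side is 1 array, and the 6 arrays limit the precision of every value. The 27 gene lists and the members were chosen with earlier results of these data known. Named by rule were Top2b, the 10 largest differences each way above noise, the 6 brightest readings each way with 1 array within noise, and in each list described the 4 brightest members and the 2 with the largest differences. Every other gene was named after its values were seen. Alternatives were other scalings, floors, filters and probe sets, sex-linked genes included, and each E16.5 array replaced by the midpoint of its genotype's other ages. Scaling to spike-in controls was added after the data were seen. The calculations used Python 3.11.15 with numpy 2.4.6, pandas 2.3.3, statsmodels 0.14.6 and matplotlib 3.10.9, and were checked on simulated arrays.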

Additional observations from a re-analysis of the deposited data

Results flagged for a closer look

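The median difference of neuropeptide genes at E16.5 was -0.65, with 0.04 at E14.5, and 0.02 at E18.5, and that of choroid plexus genes was -0.76, with 0.47 and 0.22 at those ages. Got2 differed by 2.89 at E16.5, -3.29 at E14.5 and -1.53 at E18.5. Got2 and the choroid plexus median thus changed direction between ages. The neuropeptide median did not reverse, since away from E16.5 it lay close to the medians of all genes (0.05 for E14.5, 0.01 for E18.5). Summed neuropeptide readings were lower in top2b-/- at each age. They were 2716 in Top2b+/+ and 2058 in top2b-/- for E14.5, 4734 and 1994 for E16.5, and 4716 and 3569 for E18.5. The difference between ages was not tested.

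Xist, the RNA of the inactive X chromosome and no part of the comparison of autosomal genes, read 763 in the E16.5 top2b-/- brain and at most 13.0 in the other 5. Eif2s3y of the Y chromosome read 12.9 in that brain, and 123 to 199 in the other 5. Both readings follow the labelled sexes. Among 175 measured X- and Y-linked genes, 5 read at least 2-fold higher and 6 at least 2-fold lower at E16.5.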

How the results depend on the processing

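With 1 array a side no replicate could be left out. No paired analysis was possible because each genotype has 1 array at each age and the result comes from no test. Unscaled intensities gave 468 higher and 77 lower genes, all 77 among the 207, and medians of 0.12 for axon guidance, 0.13 for synaptic, 0.11 for cytoskeletal, 0.25 for glutamate and GABA, 0.35 for astrocyte, -0.23 for meningeal, 0.36 for microglial, 0.16 for erythroid, 0.13 for glycolysis and 0.15 for housekeeping genes, and 0.19 for genes over 200 kb. Spike-in scaling, added after the data were seen, gave 261 higher and 99 lower genes and, in the same order, -0.070, -0.055, -0.074, 0.066, 0.16, -0.41, 0.29 and 0.052 (erythroid), and 0.011 over 200 kb. Against the median of all genes under each of these settings (0.45 and 0.28), the axon guidance median was -0.33 and -0.35 and the meningeal median -0.68 and -0.69.

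Quantile normalization gave medians of -0.14 for cytoskeletal, -0.65 for meningeal and 0.024 for erythroid genes, and the correction for brightness -0.13 for cytoskeletal genes. A floor of 0.5 times the main one gave 131 higher genes. A floor 2 times as high gave 34 higher and 131 lower genes and medians of -0.61 for meningeal and 0.00 for microglial genes and -0.18 over 200 kb. With no filter on dim genes these were -0.59, 0.00 and -0.032. With a filter at 4 times the floor there were 25 higher and 81 lower genes, with medians of -0.032 for microglial and -0.32 for erythroid genes.

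With the Top2b+/+ array of E16.5 replaced by the midpoint of its other ages there were 24 higher and 100 lower genes, 71 of these among the 207, and medians of -0.10 for synaptic, -0.079 for cytoskeletal and -0.39 for meningeal genes and -0.13 over 200 kb. Got2 became -0.34 and Pcp2 -0.96. With the top2b-/- array replaced in the same way there were 61 higher and 144 lower genes, 87 of these among the 207, and medians of -0.62 for axon guidance, -0.22 for meningeal, 0.25 for microglial, 0.064 for erythroid and 0.054 for choroid plexus genes. The cause of these shifts was not tested. Of 402 values of named genes under the alternatives, 327 stayed within 1.5-fold of the main value, 73 moved further and 2 reversed. Of 416 medians of lists and of gene spans, 288 stayed within 0.15 of the main value on the log2 scale, 118 moved further and 10 reversed. Readings within noise give only bounds, which is so for 153 genes in top2b-/- and 177 in Top2b+/+.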
